A study of Mus musculus with 8 samples.

Results

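The genes described here are 8 transcription factors of the embryonic mouse lung, 5 of them T-box factors (Tbx1, Tbx2, Tbx3, Tbx4 and Tbx5) and 3 other mesenchymal factors (Tcf21, Meox2 and Ebf1). They were taken by gene symbol from a table of 55401 genes, and all 8 were found there and passed the filter on low counts. Transcripts were counted in whole lung at E13.5 in 4 mutant and 4 control libraries. The mutant genotype is written Tbx4tetOcre with MyrfE6, a cre under a Tbx4 regulatory element combined with an allele of Myrf, and the other genotype is written only as cre control. The labels do not explain MyrfE6, do not say whether the controls carry the same cre, and give no drug treatment, embryo number, litter or sex. The p-values therefore measure the spread between these libraries, which may be partly technical.

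T-box factors bind DNA through a shared domain, the T-box, and activate or repress transcription. In the developing mouse lung Tbx2, Tbx3, Tbx4 and Tbx5 are known from the mesenchyme, the tissue that surrounds the branching airway epithelium and signals to it through ligands such as Fgf10 and Wnt2. Tbx1 is best known from the pharyngeal arches, the heart field and lymphatic endothelium, and it has also been described in lung epithelium. Tcf21 is a basic helix-loop-helix factor needed for lung branching, Meox2 is a homeobox factor of mesoderm, and Ebf1 is best known as a B cell factor that mesenchymal cells also express.

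Of the 8 factors, only Tbx1 differed between mutant and control lungs by edgeR's quasi-likelihood test at an adjusted p below 0.05, and it was higher in the mutants. The same test called 236 of 15788 genes, or 1.49% of those tested, of which 89 were higher in the mutants (0.564%) and 147 lower (0.931%). For the other 7 factors the log2 fold change of mutant over control lay between -0.08 and 0.06, and each 95% confidence interval included 0. The intervals were not equally narrow. As a difference of mutant from control, that of Tbx4 ran from -8.16% to 1.06%, while that of the weakly expressed Ebf1 ran from -20.0% to 20.5%. In whole-tissue RNA, fewer cells of a type and less RNA per cell cannot be told apart.

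Each library held 17799899 to 48679134 counted read pairs, with the deepest in the mutant group. Values are given in CPM, counts scaled to a common library size (TMM), unless stated otherwise. Myrf, the targeted gene, was counted at 84.3 to 92.3 CPM in the mutants and 107 to 120.3 CPM in the controls, and it fell (log2 fold change -0.37, SE 0.044, adjusted p = 0.000211). That count covers all exons, and the labels do not say which part of the gene the allele changes. Markers of lung mesenchyme were abundant in every library, with a sum over 8 genes of 7893 to 9370 CPM in the mutants and 7427 to 8731 CPM in the controls. Of the 8, 0 were called by edgeR or limma-voom and 1 by DESeq2, which called 2.36% of all genes. At an unadjusted p below 0.05 there were 2, a level that 13.9% of all genes tested reached. Their log2 fold changes were 7 positive and 1 negative, with a median of 0.09. The 7 epithelial markers summed to 929.6 to 971 CPM in the mutants and 875 to 916 CPM in the controls, and the 7 mesothelial markers to 126 to 148 CPM in the mutants and 174 to 195 CPM in the controls. Libraries also differed in Xist, the RNA of the inactive X chromosome, and in 4 summed Y-linked genes. Mutant replicates 1 and 2 had mainly Y-linked counts, control replicates 2 and 3 mainly Xist, and the other 4 libraries had both.

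The T-box genes lie in linked pairs, as the deposited coordinates on GRCm38 show. Tbx2 (ENSMUSG00000000093.6) spans chr11:85832551-85841948 on the plus strand, and Tbx4 (ENSMUSG00000000094.12) follows at chr11:85886422-85916097 on the same strand, 44474 bases away. Tbx3 (ENSMUSG00000018604.18) spans chr5:119670669-119684724 and Tbx5 (ENSMUSG00000018263.11) chr5:119832668-119885219, both on the plus strand with 147944 bases between them. Tbx1 (ENSMUSG00000009097.10) stands alone on the minus strand at chr16:18580979-18590671, with 5 annotated transcripts and 16 distinct exons that cover 3517 bases. Tcf21 (ENSMUSG00000045680.8) lies at chr10:22817281-22820174 on the minus strand, Meox2 (ENSMUSG00000036144.6) at chr12:37108540-37179534 on the plus strand, and Ebf1 (ENSMUSG00000057098.14) at chr11:44617317-45008091 on the plus strand. All 8 are annotated as protein coding. Counts cover all exons of a gene, so transcripts that begin at different starts are not separated. The longest stretch that any pair of the 8 shares in its transcripts is 30 bases, between Tbx4 and Ebf1, and the more closely related pairs Tbx4 and Tbx5 share at most 23 bases and Tbx2 and Tbx3 at most 14.

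The start regions of Tbx1, the factor that differed, and of Tbx4, whose element names the cre, are printed to show the sequence around annotated starts of these genes. RefSeq, on GRCm38.p6, gave windows for 5 of the 8 factors, 7 windows in all, each from 250 bases before a start to 50 bases after it. Tbx1 has windows at 2 starts, both on the minus strand, at chr16:18590622-18590921 and chr16:18588850-18589149, and the Tbx4 window is chr11:85896515-85896814 on the plus strand, inside the gene's span given above. Capitals mark AGGTGT, the first 6 letters of the T-box half-site AGGTGTGA, and TATAAA, the TATA box, which is written TTTATA where it lies on the other strand.
Tbx1, outer start: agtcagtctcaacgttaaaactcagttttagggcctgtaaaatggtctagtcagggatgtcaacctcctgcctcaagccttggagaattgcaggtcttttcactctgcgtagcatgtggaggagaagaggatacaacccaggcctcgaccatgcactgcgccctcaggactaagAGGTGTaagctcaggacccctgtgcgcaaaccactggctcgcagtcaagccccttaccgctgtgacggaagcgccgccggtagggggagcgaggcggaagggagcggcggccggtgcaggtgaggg
Tbx1, inner start: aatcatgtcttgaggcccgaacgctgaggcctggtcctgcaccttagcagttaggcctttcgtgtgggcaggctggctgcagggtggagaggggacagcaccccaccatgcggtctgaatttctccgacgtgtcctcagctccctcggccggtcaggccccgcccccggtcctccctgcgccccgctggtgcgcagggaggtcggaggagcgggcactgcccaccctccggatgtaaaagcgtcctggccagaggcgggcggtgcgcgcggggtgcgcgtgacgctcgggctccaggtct
Tbx4: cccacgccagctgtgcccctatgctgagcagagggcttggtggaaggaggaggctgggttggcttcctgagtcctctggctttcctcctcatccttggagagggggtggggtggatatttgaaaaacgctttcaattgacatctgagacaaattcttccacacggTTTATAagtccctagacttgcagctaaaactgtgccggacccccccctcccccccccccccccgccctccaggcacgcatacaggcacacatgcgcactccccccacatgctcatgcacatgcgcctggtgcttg
Both strands of all windows were searched for AGGTGTGA, AGGTGT and TATAAA, and every AGGTGTGA is also an AGGTGT. The outer Tbx1 window holds an AGGTGT that begins 76 bases before the start, and the inner one holds none of the 3 motifs. In the Tbx4 window TATAAA lies on the other strand, at 85 bases before the start by its first letter in the printed line. Among the remaining windows, 1 of 2 Ebf1 windows holds AGGTGT and the Meox2 window holds TATAAA, while the Tcf21 window holds neither. None of the 7 windows holds the whole half-site. These letters are common by themselves, since of 32851 mouse windows of this length 13.7% hold AGGTGT, 13.6% TATAAA and 1.28% AGGTGTGA. The inner Tbx1 window is rich in G and C, at 69.0% against a median of 52.7% over all windows, and the outer Tbx1 and Tbx4 windows have 58.3% and 59.0%.

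Tbx1 was counted at 32.9, 35.3, 37.9 and 35.9 CPM in mutant replicates 1 to 4 and at 26.5, 26.4, 30.5 and 28.7 CPM in control replicates 1 to 4. The lowest mutant library stood above the highest control library, so the groups did not overlap. The means were 35.5 ± 2.05 CPM in the mutants and 28.0 ± 1.93 CPM in the controls (SD, n = 4 each), which makes the mutants 26.5% higher. The log2 fold change was 0.34 (SE 0.0611, 95% interval 0.21 to 0.47, adjusted p = 0.00852 by edgeR's quasi-likelihood test), from 469 to 1725 read pairs per library. Each group's CV, 5.79% in the mutants and 6.9% in the controls, was larger than the 3.4% and 4.45% that counting alone gives, and the difference between the means was larger than either.

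The call for Tbx1 did not rest on a single library or scaling. Under 18 alternatives, which included other scalings, DESeq2, limma-voom and leaving out each library, the log2 fold change stayed between 0.31 and 0.42 and the adjusted p between 2.94e-06 and 0.0416. With the Y-linked level as a covariate it was 0.37 (adjusted p = 0.0378). In the 4 libraries that held Y-linked counts as well as Xist, an alternative chosen after the data were seen, Tbx1 was at 37.9 and 35.9 CPM in mutant replicates 3 and 4 and at 26.5 and 28.7 CPM in control replicates 1 and 4. That fit gave a log2 fold change of 0.42 (adjusted p = 0.0366).

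**Figure D1:**
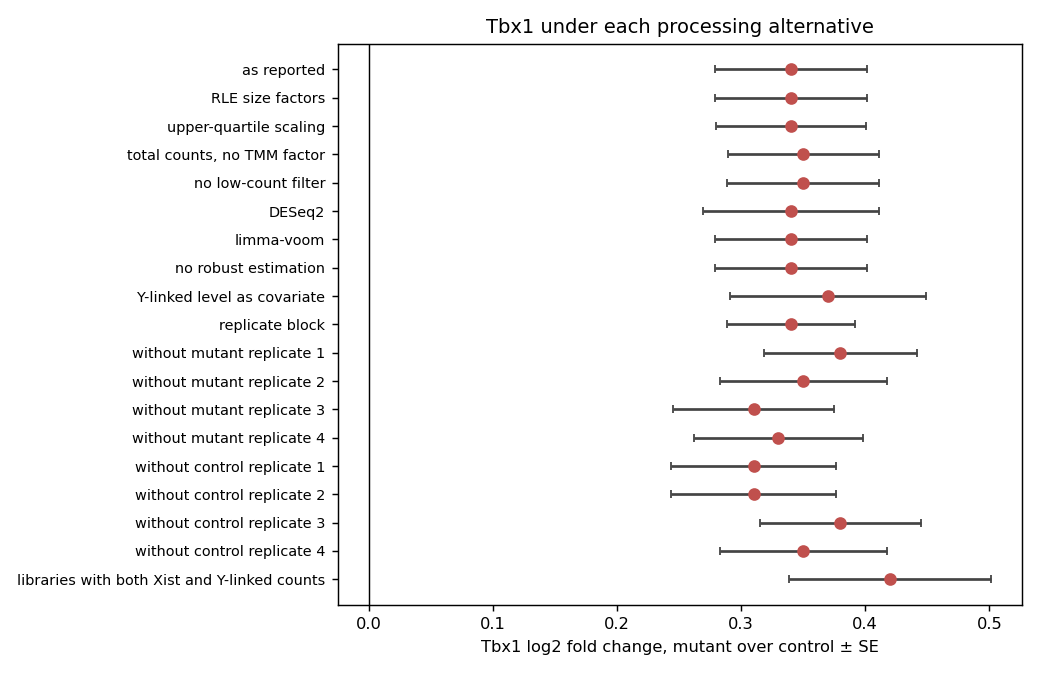
Log2 fold change of Tbx1, mutant over control, as reported and under 18 alternatives (points, with bars of 1 SE; the dark vertical line is at 0). All points lie between 0.31 and 0.42, and every alternative kept an adjusted p below 0.05.

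Markers of several cell types in which Tbx1 has been described were also measured. The 7 epithelial markers all had positive log2 fold changes, from 0.03 to 0.15, and 0 of the 7 passed the adjusted threshold by edgeR, DESeq2 or limma-voom, with 5 at an unadjusted p below 0.05, a level that 13.9% of all genes tested reached. Divided by their sum, Tbx1 stood at 35.4, 36.7, 39.6 and 36.9 CPM per 1000 CPM of epithelial markers in the mutants and at 30.3, 28.8, 33.9 and 31.7 in the controls. On this ratio the means were 37.2 ± 1.78 in the mutants and 31.2 ± 2.16 in the controls (SD, n = 4 each), and the groups did not overlap, as they did not for Tbx1 undivided. An exact two-sided permutation test over the libraries gave p = 0.0286. That is the smallest value 70 permutations allow, and any groups of 4 that do not overlap would give it. The ratio is therefore given as a description, and its markers do not include those of the proximal airway.

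The 6 markers of proximal airway epithelium summed to 43.3 to 50.1 CPM in the mutants and 31.1 to 40.3 CPM in the controls. Of these, Sox2, a factor of the proximal airway, rose (log2 fold change 0.53, adjusted p = 0.00282), as did the tight junction gene Cldn10 (0.40, adjusted p = 0.0139). The other 4 were not called, where 0.564% of all genes tested were called higher. Over the list 3 log2 fold changes were positive and 3 negative, from -0.74 to 0.83. Unadjusted p was below 0.05 for 3 of the 6, all higher, a level that 13.9% of all genes tested reached. The third besides Sox2 and Cldn10 was Scgb3a2 (0.83, adjusted p = 0.307). The negative values were those of Foxj1, Trp63 and Krt5, which averaged at most 1.58 CPM in either group. Krt5, at -0.74, was at 4.63 CPM in control replicate 3 and at most 1.17 CPM in any other library. The 6 endothelial markers summed to 831 to 897 CPM in the mutants and 781 to 846 CPM in the controls. Emcn was the 1 called (log2 fold change 0.19, adjusted p = 0.0479), where 0.564% of all genes tested were called higher. All 6 log2 fold changes were positive, from 0.02 to 0.19, with a median of 0.08. An unadjusted p below 0.05 was reached by 2 of the 6 and by 13.9% of all genes tested. Flt4, a receptor known from lymphatic endothelium, was at 52.4 ± 3.15 CPM in the mutants and 56.1 ± 3.44 CPM in the controls. It was not called (log2 fold change -0.10, adjusted p = 0.405), and it also stands in the list of genes reported downstream of the T-box factors. The 5 tested of 6 heart muscle markers all had positive log2 fold changes, from 0.21 to 1.42, with 0 called by edgeR (1 at an unadjusted p below 0.05, 1 by DESeq2), and the list summed to 81.3 to 139 CPM in the mutants and 58.4 to 96.6 CPM in the controls. The part of airway, endothelial or heart tissue in the Tbx1 difference was not tested. Of 7 markers of pharynx, thymus and thyroid none was counted high enough to test, their sum was 0.618 to 1.12 CPM in the mutants and 0.949 to 1.24 CPM in the controls, and Pax8 and Foxe1 had no counts.

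Tbx4, which with Tbx5 is needed for lung branching, was counted at 266, 263, 253 and 264 CPM in the mutants and at 279.6, 267, 272 and 267 CPM in the controls. The highest mutant library lay just under the lowest control library, so the groups did not overlap. This separation was narrow: with libraries scaled by their total counts alone, the mutants ran from 253 to 268 CPM and the controls from 266 to 279 CPM, and the groups overlapped. The means were 261 ± 5.91 CPM in the mutants and 271 ± 5.97 CPM in the controls (SD, n = 4 each), and the difference did not pass the test (log2 fold change -0.05, SE 0.0329, adjusted p = 0.506). Tbx1 and Tbx4 were thus the 2 of 8 factors whose groups did not overlap, against 7.35% of all genes tested, of which 3.31% were higher and 4.05% lower in the mutants.

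Tbx5 was at 196, 194, 194 and 196 CPM in the mutants and at 223, 202, 208 and 191 CPM in the controls. The 4 mutant libraries lay inside the control range, and control replicate 1 was the highest for both Tbx4 and Tbx5. The means were 195 ± 1.23 CPM in the mutants and 206 ± 13.47 CPM in the controls (SD, n = 4 each), and the log2 fold change, -0.08, did not pass the test (SE 0.041, adjusted p = 0.403). The interval of the difference, mutant from control, ran from -10.8% to 0.463%.

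Tbx2 and Tbx3 are repressors that keep lung mesenchyme proliferating. Tbx2 was at 441, 427, 405 and 394 CPM in the mutants and at 351, 383, 424 and 455 CPM in the controls. The controls spread on both sides of the mutants, with control replicate 1 the lowest and control replicate 4 the highest of all 8 libraries. The means were 417 ± 21.4 CPM in the mutants and 403 ± 45.7 CPM in the controls (SD, n = 4 each), and the log2 fold change of 0.05 did not pass the test (SE 0.079, adjusted p = 0.851). Relative to what counting alone gives, Tbx2 varied most among the 8 factors, since its CV in the controls was 11.3% where counting accounts for 1.18%. Leaving out control replicate 1 turned its log2 fold change to -0.01.

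Tbx3 was far steadier, at 117, 116, 115 and 118 CPM in the mutants and 116, 122, 125 and 121 CPM in the controls. Control replicate 1 again lay low, inside the mutant range, and the other 3 controls stood above every mutant. The means were 116 ± 1.11 CPM in the mutants and 121 ± 3.51 CPM in the controls (SD, n = 4 each), a log2 fold change of -0.06 that did not pass the test (SE 0.0342, adjusted p = 0.488).

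Tcf21 was at 115, 113, 111 and 115 CPM in the mutants and at 102, 113, 112 and 106 CPM in the controls. Control replicates 2 and 3 lay within the mutant range and control replicates 1 and 4 under it. Its log2 fold change was 0.06 (SE 0.039, adjusted p = 0.5), with means of 113 ± 1.9 CPM in the mutants and 108 ± 5.35 CPM in the controls (SD, n = 4 each).

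Meox2 was at 40.4, 43.0, 43.0 and 44.8 CPM in the mutants and at 43.4, 44.7, 47.7 and 41.8 CPM in the controls, and the groups overlapped over most of their ranges. The means were 42.8 ± 1.81 CPM in the mutants and 44.4 ± 2.51 CPM in the controls (SD, n = 4 each), and the log2 fold change of -0.05 did not pass the test (SE 0.0512, adjusted p = 0.708).

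Ebf1 was the weakest of the 8, with 87 to 305 read pairs per library. It was at 5.16, 6.24, 6.78 and 6.01 CPM in the mutants and at 5.33, 6.42, 8.01 and 4.9 CPM in the controls. Control replicate 3 was the highest and control replicate 4 the lowest, so the mutants lay wholly inside the control range. The means were 6.05 ± 0.673 CPM in the mutants and 6.16 ± 1.39 CPM in the controls (SD, n = 4 each), and the log2 fold change of -0.03 did not pass the test (SE 0.141, adjusted p = 0.958). Its sign was not stable, since the value was 0.28 with the Y-linked level as a covariate and 0.33 in the 4 libraries holding Y-linked counts as well as Xist. The 5 B cell markers summed to 2.23 to 2.68 CPM in the mutants and 1.63 to 2.53 CPM in the controls, with 0 of 3 tested called by edgeR or DESeq2 and 0 at an unadjusted p below 0.05. Cd79b, a part of the B cell receptor, averaged 1.2 CPM in the mutants and 0.997 CPM in the controls, Cd79a 0.722 CPM in the mutants and 0.64 CPM in the controls, and Vpreb1 0.542 CPM in the mutants and 0.482 CPM in the controls. The B cell factor Pax5 averaged 0.0303 CPM in the mutants and 0.0264 CPM in the controls. The part of B cells in the Ebf1 counts was not tested.

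**Figure D2:**
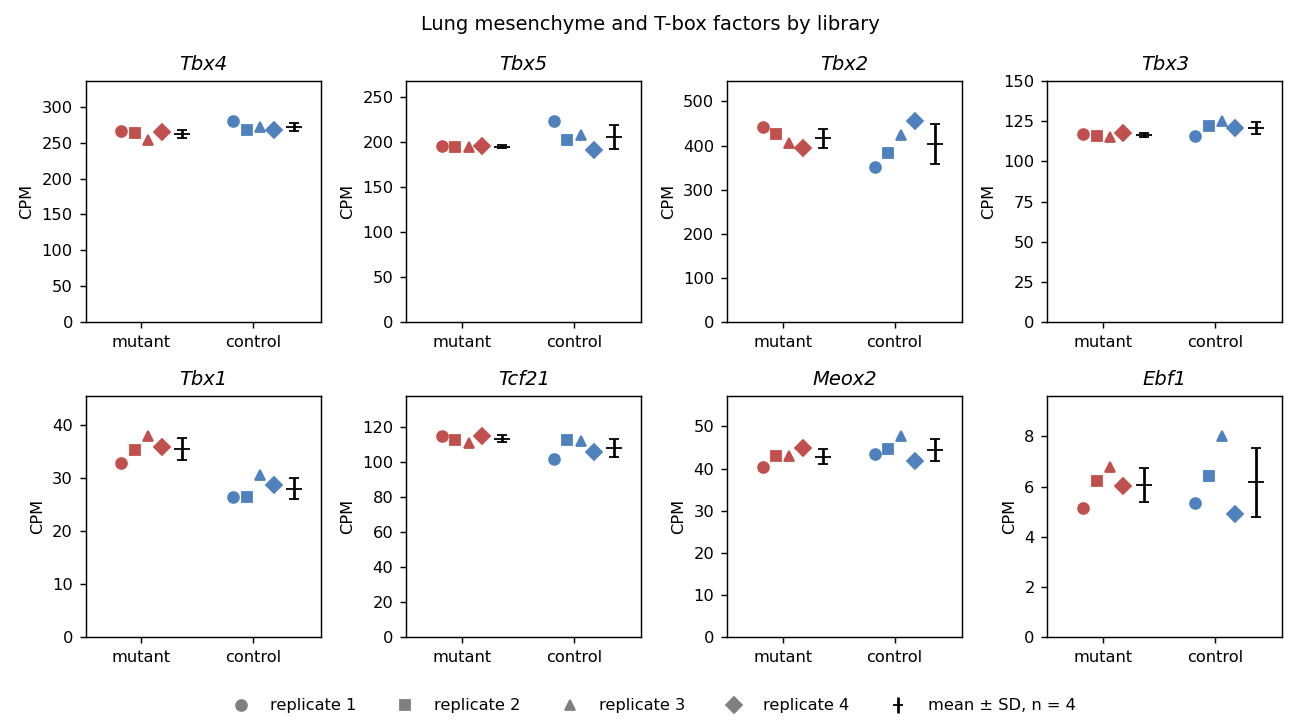
TMM-scaled CPM of the 8 factors, with 1 panel per gene and an axis from 0; mutant libraries (red) stand left of control libraries (blue), symbols mark the replicate and black bars the mean ± SD. Tbx1 is the panel in which every mutant library lies clearly above every control library, and in the Tbx2 panel the controls, from 351 to 455 CPM, spread on both sides of the mutants.

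**Figure D3:**
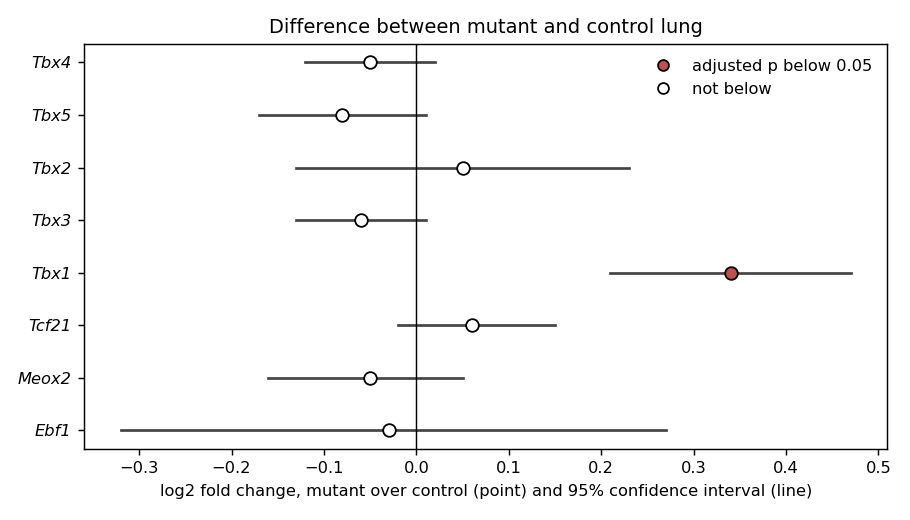
Log2 fold change of each factor, mutant over control (points), with its 95% confidence interval (lines). The interval of Tbx1, from 0.21 to 0.47, is the one of the 8 that lies wholly above 0, and the widest is that of Ebf1, from -0.32 to 0.27.

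To compare levels between genes, counts were also divided by exon length and scaled to a common total per library (TPM). Tbx2 was the most abundant of the 8, averaging 403 TPM in the mutants and 385 TPM in the controls, above 97.9% of the genes tested. Tbx4 came next, at 269 TPM in the mutants and 276 TPM in the controls, above 96.7% of genes. Neither neighbour in this order overlapped the other in either group.

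Tcf21 averaged 169 TPM in the mutants and 159.8 TPM in the controls, and Tbx5 146 TPM in the mutants and 152 TPM in the controls, so that their ranges were apart in the mutants and overlapped in the controls. Meox2, at 63.6 TPM in the mutants and 65.1 TPM in the controls, and Tbx3, at 61.5 TPM in the mutants and 63.2 TPM in the controls, overlapped in both groups. Tbx1 lay below them at 35.4 TPM in the mutants and 27.6 TPM in the controls, above 63.1% of genes. Ebf1, at 2.17 TPM in the mutants and 2.19 TPM in the controls, stood above 13.8% of genes. The order of the 8 mean levels was thus the same in both genotypes.

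The balance of levels within the related pairs is given as a description with no test. The TPM of Tbx4 was 1.84 ± 0.034 times that of Tbx5 in the mutants and 1.81 ± 0.0826 times in the controls, and that of Tbx2 was 6.55 ± 0.345 times that of Tbx3 in the mutants and 6.08 ± 0.592 times in the controls (SD, n = 4 each). The difference between the 2 means of Tbx4 over Tbx5 was smaller than the SD of either group, and that of Tbx2 over Tbx3 was larger than the SD of the mutants and smaller than the SD of the controls.

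**Figure D4:**
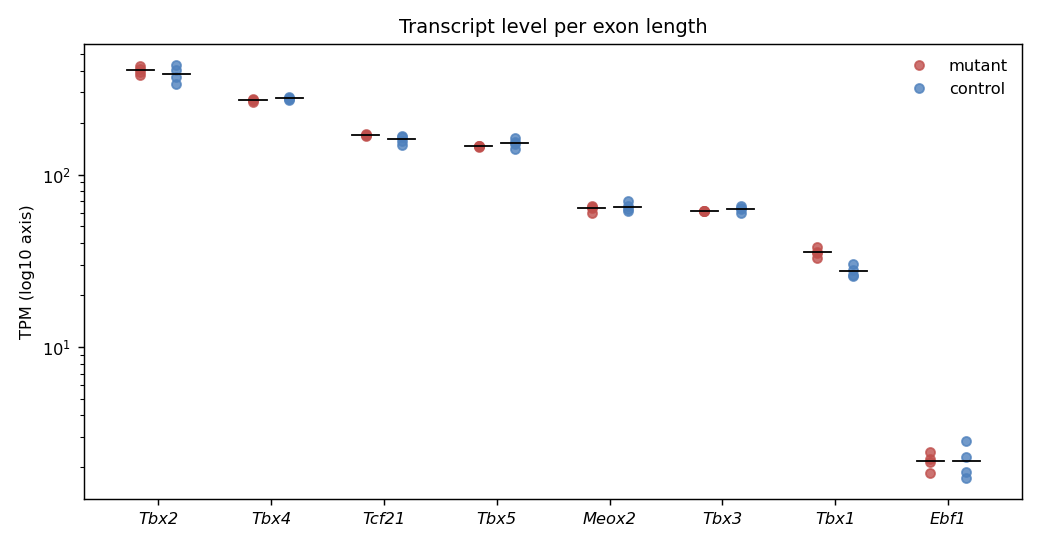
Level of the 8 factors in TPM on a log10 axis, ordered by mean; points are libraries (mutant in red, left; control in blue, right) and horizontal lines the group means. The levels run from Tbx2, at 403 TPM in the mutants and 385 TPM in the controls, to Ebf1, at 2.17 TPM in the mutants and 2.19 TPM in the controls.

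Some factors varied together from library to library. Over the 8 libraries, after the group means were subtracted, Pearson's r of log2 CPM was 0.89 for Tbx3 and Tcf21, 0.88 for Meox2 and Ebf1, and 0.70 for Tbx4 and Tbx5, while Tbx2 and Tbx5 ran opposite at -0.77. These are descriptions of 8 libraries, which share their depth and scaling, and carry no test. Among 8993 genes of at least moderate level, those most like Tbx1 by the same measure were Hltf (0.983), Alg6 (0.969) and Thap2 (0.967). For Tbx4 they were Arl6 (0.972), Btf3 (0.965) and Pskh1 (0.96). For Tbx2, added after its scatter was seen, they were Trir (0.981), Ticrr (0.978) and Nf2 (0.977). Picking the highest of 8993 values over 8 libraries by itself gives high r, and these values carry no test either.

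No other T-box gene was called. Of 12 listed, 5 were tested and 0 passed the threshold in either direction, with 0 at an unadjusted p below 0.05 (13.9% of all genes tested) and 0 called by DESeq2 or limma-voom, which called 2.36% and 1.92% of all genes. Their median log2 fold change was -0.04, against 0.00 over all genes tested. Mga, a factor that joins a T-box to a Max-binding domain, was the most abundant at 61.2 ± 1.72 CPM in the mutants and 62.7 ± 1.55 CPM in the controls. Tbx18, known from mesothelium and other linings, was at 2.98 ± 0.321 CPM in the mutants and 3.41 ± 0.467 CPM in the controls (log2 fold change -0.21, adjusted p = 0.582). Tbx6, a factor of presomitic mesoderm, was at 1.69 ± 0.325 CPM in the mutants and 1.51 ± 0.292 CPM in the controls. The other 7 did not exceed 0.902 CPM in any library.

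Close relatives of Tcf21, Meox2 and Ebf1 gave no call either, with 0 of 7 tested genes past the threshold by edgeR, DESeq2 or limma-voom. Of the 7, 2 had an unadjusted p below 0.05, a level that 13.9% of all genes tested reached. The median log2 fold change was 0.11. Ebf4, an Ebf paralogue, was at 20.5, 18.5, 19.0 and 20.0 CPM in the mutants and at 15.9, 16.2, 17.3 and 15.9 CPM in the controls. These groups did not overlap, as 3.31% of all genes tested did not with the mutants higher. The log2 fold change of 0.25 had an adjusted p of 0.0629. Without the filter on low counts it passed, at an adjusted p of 0.0308. The other gene with a low unadjusted p was the paralogue Ebf3, named after its values were seen, at 1.81 ± 0.199 CPM in the mutants and 1.01 ± 0.138 CPM in the controls (log2 fold change 0.82, adjusted p = 0.053). Meox1, the paralogue of Meox2, was at 11.6 ± 0.961 CPM in the mutants and 12.7 ± 1.23 CPM in the controls, and the somite factor Tcf15 at 1.91 ± 0.163 CPM in the mutants and 1.76 ± 0.483 CPM in the controls.

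Among 26 other lung mesenchyme factors, 1 fell, 0 rose and 25 were not called, where 0.931% of all genes tested fell and 0.564% rose. Tshz1, a zinc finger factor of the teashirt family, was at 85.9, 70.8, 74.4 and 82.6 CPM in the mutants and at 105, 94.3, 98.5 and 108 CPM in the controls. Every mutant library lay under every control library, as for 4.05% of all genes tested. The log2 fold change was -0.38 (SE 0.0619, adjusted p = 0.00943). Over the list 21 values were negative and 5 positive, the median was -0.05, and 7 lower and 1 higher genes had an unadjusted p below 0.05, against 13.9% of all genes tested. Abundant members were not called: Gli1, a target and effector of hedgehog signalling, was at 254 ± 13.48 CPM in the mutants and 266 ± 11.9 CPM in the controls. Nr2f2, an orphan nuclear receptor, was at 194 ± 10.4 CPM in the mutants and 203 ± 7.78 CPM in the controls.

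Of 15 tested genes reported downstream of the T-box factors, 1 fell and 0 rose, where 0.931% of all genes tested fell and 0.564% rose. At an unadjusted p below 0.05 there were 2 lower and 1 higher, a level that 13.9% of all genes tested reached. The median log2 fold change of the list was -0.08. The 1 that fell was Wnt2, a ligand of lung mesenchyme that acts on the epithelium and has been placed downstream of Tbx4 and Tbx5. Wnt2 was at 103, 91.8, 84.2 and 85.5 CPM in the mutants and at 118, 109, 116 and 117 CPM in the controls. Every mutant library again lay under every control library, as for 4.05% of all genes tested, and mutant replicate 1 was the mutant library closest to the controls. Its log2 fold change was -0.33 (SE 0.0559, adjusted p = 0.00852), while Tbx4 and Tbx5 themselves had values of -0.05 and -0.08 that did not pass.

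Fgf10, the branching ligand tied to Tbx4 and Tbx5, was at 27.4 ± 2.37 CPM in the mutants and 32.4 ± 3.51 CPM in the controls (log2 fold change -0.24, adjusted p = 0.14). Wnt5a, another ligand of the mesenchyme, had a value of the opposite sign, at 29.1 ± 2.94 CPM in the mutants and 24.4 ± 1.74 CPM in the controls (log2 fold change 0.25, adjusted p = 0.103), and it passed without mutant replicate 1 (0.33, adjusted p = 0.022). The cell cycle inhibitors Cdkn1a and Cdkn1b, which Tbx2 and Tbx3 repress, had log2 fold changes of -0.09 and -0.08, with adjusted p of 0.779 and 0.595. The most abundant uncalled genes were the ligand Bmp4, at 62.8 ± 1.64 CPM in the mutants and 63.6 ± 3.09 CPM in the controls, and the proliferation factor Mycn, at 62.4 ± 3.43 CPM in the mutants and 60.4 ± 5.22 CPM in the controls. Fgf10, Wnt5a, Cdkn1a and Cdkn1b are named after their values were seen.

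The mesothelium, a lining that covers the lung, is a further cell type whose markers were measured. Of its 7 markers, 4 fell and 0 rose by edgeR, where 0.931% of all genes tested fell. The other 3 were not called, and over the list 5 log2 fold changes were negative and 2 positive. Upk3b fell most clearly, to 57.0 ± 3.38 CPM in the mutants against 88.3 ± 3.49 CPM in the controls (log2 fold change -0.63, adjusted p = 1.08e-06). The part of the mesothelium in the lower Tshz1 and Wnt2 was not tested.

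No gene next to the 8 factors was called. Within 50 kb of a listed factor lay 24 other genes, of which 9 were tested and 0 were called, with 0 at an unadjusted p below 0.05, 0 called by DESeq2 or limma-voom and a median log2 fold change of 0.03. Gnb1l, the tested neighbour of Tbx1 that is nearest to it, on the opposite strand and 14300 bases away, was at 12.8 ± 1.06 CPM in the mutants and 12.6 ± 0.352 CPM in the controls (log2 fold change 0.03). Tbx3os1, an antisense RNA whose span reaches into Tbx3, was at 52.1 ± 2.44 CPM in the mutants and 50.3 ± 3.72 CPM in the controls. Bcas3, upstream of Tbx2, was at 27.3 ± 4.86 CPM in the mutants and 28.6 ± 3.75 CPM in the controls, and Gm43050, which lies 646 bases from Tbx5 on the opposite strand, at 26.8 ± 1.02 CPM in the mutants and 26.9 ± 1.45 CPM in the controls. The counting used strand, so the reads of the opposite-strand neighbours Gnb1l, Tbx3os1 and Gm43050 were kept apart from those of the factors. Bcas3 lies on the same strand as Tbx2, 6493 bases away. The span of Gm48617, named after its values were seen, overlaps Meox2 on the same strand, where strand cannot separate reads. It had no counts in any library.

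**Figure D5:**
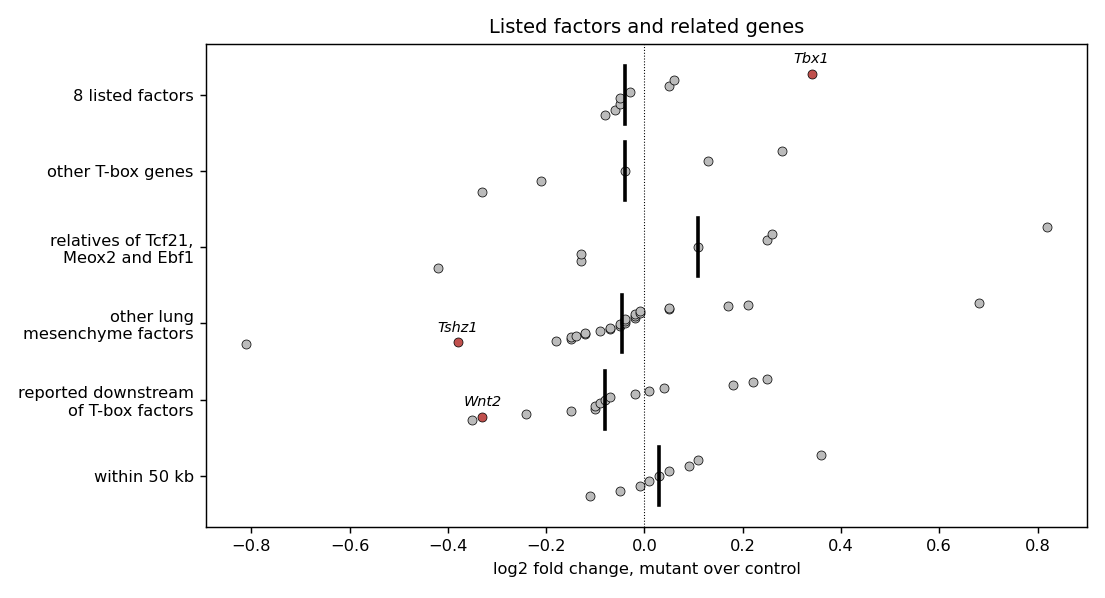
Log2 fold change, mutant over control, of every tested gene in the 6 lists (points) with the list's median (black bar); red points passed the adjusted p threshold of 0.05 and are named. Tbx1 is the one called among the 8 factors, Tshz1 and Wnt2 are the only other called genes, and the medians lie between -0.08 and 0.11.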

How the data were processed

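RNA was measured in 8 libraries of whole lung at E13.5, made with a stranded messenger RNA kit per the labels' protocols. The deposited table holds raw counts of read pairs per gene, made, per the file headers, with featureCounts 1.6.4 on GENCODE exons, with strand option 2. STAR, featureCounts and DESeq2 stand in the submitters' processing notes beside the build GRCm38 (mm10), and for STAR the sources used here give no version. Symbols matched 55141 of 55401 gene IDs. Counts were filtered with filterByExpr, TMM-scaled and tested with edgeR 4.0.16 (R 4.3.3; robust quasi-likelihood F test, two-sided, Benjamini-Hochberg over all 15788 genes tested, 0.05). Confidence intervals are at 95%. The tests were run on simulated data first. Alternatives were DESeq2 1.42.0, limma 3.58.1 (voom), other scalings, no filter, a Y-linked covariate, a replicate block and leaving out each library; using only the 4 libraries that held Y-linked counts as well as Xist was added as an alternative after the data were seen. TPM used the deposited exon lengths. The factors, lists and tests were chosen with earlier results of these data known. Named genes are all 8 factors and, of each further list, those past the threshold and the 3 most abundant tested; other names are marked as chosen after their values were seen, apart from marker genes, Myrf and Gnb1l, which are also outside that rule; 1 gene that the rule names is not reported here. Genes most like Tbx1 and Tbx4 were ranked by Pearson's r of log2 CPM within groups, among named genes whose mean log2 CPM was 4 or more. Of the further marker lists, edgeR called 0 of 6 smooth muscle markers (4 at an unadjusted p below 0.05, 1 by DESeq2), 0 of 4 of cartilage (2 unadjusted, 0 by DESeq2), 0 of 2 of skeletal muscle and 0 of 3 of B cells (0 unadjusted and 0 by DESeq2 in both), and 1 of 3 of esophagus and stomach (Sox2). The unadjusted level was reached by 13.9% of all genes tested. All 6 smooth muscle log2 fold changes were positive, with a median of 0.14. Those of cartilage were 2 positive and 2 negative, and the 2 at the unadjusted level were higher.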

Additional observations from a re-analysis of the deposited data

Results flagged for a closer look

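Meox1, the paralogue of Meox2, was at 10.9 CPM in control replicate 4, while the other 3 control libraries lay between 13.2 and 13.6 CPM. It was picked out because the gap between this library and its nearest neighbour made up 0.86 of the range of the controls, above Dixon's 95% critical value for 4 samples. It was the 1 such value among 50 groups of 4 libraries examined (25 genes, mutant and control), where chance alone gives about 1 in 20. The 4 mutant libraries were at 12.2, 12.2, 10.2 and 11.7 CPM, so the low control value lay within the mutant range.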

How the results depend on the processing

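Tbx1 kept its direction and its call under all 18 alternatives, as did Tshz1 (log2 fold change -0.45 to -0.32) and Wnt2 (-0.47 to -0.29); 1 of the 8 factors was called under each, and 0 of the other T-box genes and 0 of the neighbours. The count over all genes was less stable. Against 236 it was 366 with DESeq2, 791 when no low-count filter was used, 142 without robust estimation, 95 with the Y-linked covariate, 87 in the 4 libraries holding Y-linked counts as well as Xist, and 96 to 479 when 1 library was left out. The lowest of these, 96, was without control replicate 3, with 100 without control replicate 1, 118 without mutant replicate 2 and 121 without control replicate 2; the highest, 479, was without mutant replicate 4. Higher and lower calls were 89 and 147 in the fit reported, 52 and 43 with the Y-linked covariate, 55 and 32 in those 4 libraries, and 49 and 47 without control replicate 3. The cause of these shifts was not tested.

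Relatives of Tcf21, Meox2 and Ebf1 gave 2 calls without the filter (Ebf3, Ebf4), and other mesenchyme factors gave 2 with upper-quartile scaling or with total counts (Tshz1, which fell, and Osr2, which rose and is named after its values were seen), 4 without the filter, and 1 to 2 when 1 library was left out. Downstream genes gave 3 without the filter (Wnt2 and Fgf10 lower, Wnt5a higher) and 1 to 2 when 1 library was left out. Changes of sign were confined to values that passed in no fit. With the Y-linked covariate these were Meox2 0.02, Ebf1 0.28 and Bcas3 0.08; in the 4 libraries just named, Tbx2 -0.01, Meox2 0.05, Ebf1 0.33, Mga 0.01 and Nr2f2 0.02; with total counts Gm43050 0.0049 and without the filter Gm43050 0.01. With 1 library left out, the values ran over both signs for Tbx2 (-0.01 to 0.11), Ebf1 (-0.12 to 0.13), Tcf15 (-0.06 to 0.24), Bmp4 (-0.04 to 0.01), Bcas3 (-0.15 to 0.05) and Gm43050 (-0.03 to 0.03).

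Replicate numbers are shared between the groups, but same-numbered libraries did not deviate together in every pair (r across 13123 genes of 0.098, 0.13, 0.313 and 0.00), and not every library correlated best with its own number. With a replicate block 541 genes were called, Tbx1 had an adjusted p of 0.0012, and the lists had 1 relative, 4 other mesenchyme factors and 2 downstream genes. Depth limits Ebf1 most, where counting alone gives a CV of 8.28% in the mutants and 9.64% in the controls.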
